A study of Mus musculus with 18 samples.

Results

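The collagen chain genes encode the polypeptides from which the collagens are built. They were taken here as every gene of the deposited table whose symbol was Col, a number, the letter a and a further number, which gave 44 of 55450 genes. mRNA-seq had been carried out on 18 samples of P19, a mouse line of undifferentiated embryonic carcinoma cells, with 6 samples of each of 3 genotypes and no treatment named for any sample. WT cells were Dicer (+/+). HetKO cells were Dicer (+/-), a clonal line in which CRISPR with a pair of guide RNAs had truncated 1 Dicer1 allele. HM cells were Dicer (HM/-): they were made from the HetKO line, carry the same truncated allele, and have the RNase IIIb substitution E1797G on the other. Dicer is the enzyme that cuts microRNA (miRNA) precursors. Each genotype was thus a single line, so an effect of the genotype cannot be told apart from a property of the line. Nothing in the labels says that the samples of a line were separate cultures, so p-values measure only the spread between these samples. The samples are bulk RNA, in which fewer cells expressing a gene and less RNA per cell cannot be told apart.

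The values were TPM, transcript abundances scaled for transcript length and to the same total in every sample, so chains can be compared with each other but sequencing depth is not known. The cells had the markers of embryonic carcinoma: Pou5f1, the pluripotency factor, averaged 2088 TPM in WT, 2095 in HetKO and 2040 in HM, and the summed level of 8 such markers ranged from 2524 to 3329 TPM over all samples. Other members of this list differed between the lines: Nanog averaged 46.9, 86.3 and 18.8 TPM, with no overlap between HetKO and HM cells, Dppa4 42.3, 12.7 and 27.9 TPM, and Zfp42 1.74, 0.31 and 3.04 TPM in WT, HetKO and HM cells. Sox2 averaged 98.6, 114 and 157 TPM and Utf1 220, 148 and 381 TPM, each with every HM sample above every sample of the other lines. Lin28a averaged 282, 260 and 343 TPM and Tdgf1 229, 207 and 232 TPM. Dicer1 mRNA averaged 52.3, 48.0 and 40.3 TPM in WT, HetKO and HM; a truncated or substituted allele can still be transcribed, so this level checks the labels only weakly. Within each line the samples were matched into alike pairs by the smallest robust SD of their log2 ratio over 683 abundant genes. The pairs were WT 1 and 4, 2 and 5, 3 and 6, HetKO 1 and 4, 2 and 5, 3 and 6, and HM 1 and 4, 2 and 3, 5 and 6. This SD was 0.0493 to 0.105 within the pairs and 0.073 to 0.358 between other samples of a line, a contrast that the choice of pairs favours. WT replicates 2, 3, 5 and 6 were all within 0.0939 of each other, and replicates 1 and 4 differed from them by 0.179 to 0.205. Whether the members of a pair were separate cultures cannot be told from TPM, so the counts are also given with each pair averaged. HetKO replicates 2 and 5 and HM replicates 2 and 3 had the lowest summed collagen level of their lines, and results are also given without them below. They were picked out by these sums, so leaving them out raises the summed collagen level of their line by construction.

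A collagen molecule is a helix of 3 chains, wound tightly because glycine recurs throughout the helical part, in the repeat written Gly-X-Y. Fibrillar collagens have a long unbroken helix and pack into the rope-like fibres of skin, bone and cartilage. Basement membrane collagens have many breaks in the helix. Those of type IV join end to end into sheets, and are among the first matrix proteins laid down by early embryonic epithelia. The remaining chains include those that sit on fibres (FACIT collagens such as type IX and XVI), the beaded filaments of type VI, the anchoring fibrils of type VII, the short network collagens and the collagens that span the cell membrane. In the endoplasmic reticulum the chains are hydroxylated on proline and lysine, folded, bound by the chaperone HSP47 (the product of Serpinh1) and exported, and are then trimmed and crosslinked outside the cell.

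The repeat that defines these genes can be read from their coding sequence. The longest coding transcript of each of the 44 genes (GENCODE M21, genome build GRCm38) was translated and searched for runs of at least 3 Gly-X-Y triplets. The 11 fibrillar chains held 327 to 365 triplets, with a longest unbroken run of 216 to 344 (median 338). The 8 basement membrane chains held 121 to 444 triplets, but their longest unbroken run was 30 to 66 (median 41) and the median chain had 23.5 separate runs. The 25 other chains were the most diverse, from 34 triplets in Col26a1 to 474 in Col7a1. Col9a1, Col9a2 and Col9a3, whose products form a single molecule, had 195, 195 and 194 triplets and the same longest run of 113. Fibrillar genes are also known for exons of 54 bases, which begin with a complete glycine codon and encode 6 triplets: the median share of coding exons of this length was 46.3% in fibrillar genes, 4.05% in basement membrane genes and 8.11% in the others. Among the type IX genes it was 36.8% in Col9a1 and 43.8% in both Col9a2 and Col9a3. The first such exon of each of the 7 chains that changed between HM and WT cells is shown, because these are the genes on which the comparison turns. Each is coding sequence, read 5′ to 3′ on the strand of the gene, and capitals mark the glycine codons.
Col9a2, chr4:121043696-121043749, plus strand: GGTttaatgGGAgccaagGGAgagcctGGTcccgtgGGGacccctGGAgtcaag
Col9a3, chr2:180601582-180601635, plus strand: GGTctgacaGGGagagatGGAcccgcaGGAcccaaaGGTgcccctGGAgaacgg
Col9a1, chr1:24202014-24202067, plus strand: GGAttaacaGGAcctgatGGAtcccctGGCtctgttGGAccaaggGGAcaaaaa
Col2a1, chr15:97998545-97998598, minus strand: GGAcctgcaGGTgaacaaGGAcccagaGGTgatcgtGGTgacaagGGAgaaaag
Col1a2, chr6:4515481-4515534, plus strand: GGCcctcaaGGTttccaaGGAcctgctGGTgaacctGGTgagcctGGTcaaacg
Col7a1, chr9:108967172-108967225, plus strand: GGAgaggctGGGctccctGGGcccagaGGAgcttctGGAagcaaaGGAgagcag
Col6a4, chr9:106057381-106057434, minus strand: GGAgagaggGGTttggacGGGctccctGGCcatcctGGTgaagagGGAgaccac

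**Figure D1:**
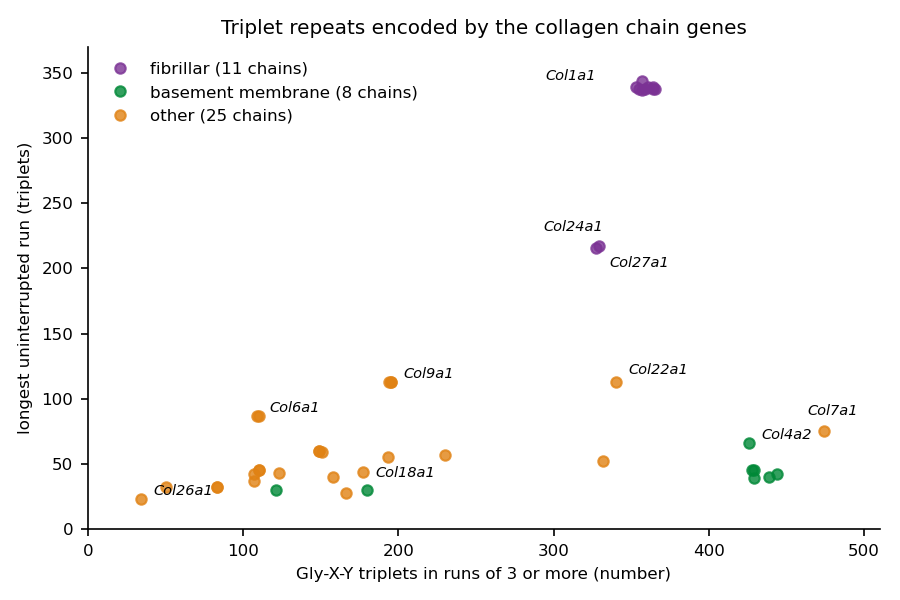
Number of Gly-X-Y triplets (horizontal axis) and length of the longest unbroken run of triplets (vertical axis) encoded by each of the 44 collagen chain genes, coloured by class. Fibrillar chains lie at the top with runs of 216 to 344 triplets, whereas basement membrane chains reach up to 444 triplets with no run above 66.

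Because the lines differ in Dicer, the 3′ untranslated regions (UTRs) of the chains were searched for matches to miR-29, a miRNA family well known for binding collagen mRNAs. Its 3 mature members, from RefSeq (GRCm38.p6), share the seed, bases 2 to 8, shown in capitals. For miR-29b a single genomic copy, on chromosome 1, was used.
miR-29a-3p, chr6:31062673-31062694, minus strand: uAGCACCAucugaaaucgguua
miR-29b-3p, chr1:195037091-195037113, plus strand: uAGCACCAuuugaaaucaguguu
miR-29c-3p, chr1:195037600-195037621, plus strand: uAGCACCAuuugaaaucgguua
The complement of this seed is TGGTGCT. At least 1 copy was present in the longest annotated 3′ UTR of 25 of the 44 chains (56.8%) and of 14 of the 20 chains that averaged 1 TPM or more (70.0%), and 6 of those 20 held more than 1. Among all 12038 protein-coding genes at this level with an annotated 3′ UTR the share was 16.0%, although their UTRs were longer (median 1190 bases, against 965 in the 20 chains). Col5a1 held 4 copies, Col4a5 held 3, and Col4a2, Col7a1, Col9a1 and Col11a1 held 2 each. Among the chains without a copy were Col9a2, Col9a3, Col1a2, Col18a1 and Col6a4. A site is shown for each of 5 chains described below, with the match in capitals.
Col4a1, chr8:11199761-11199782, minus strand: ccaccgtcacaacaTGGTGCTa
Col4a2, chr8:11448345-11448366, plus strand: tgggaaggccacgtTGGTGCTt
Col2a1, chr15:97975681-97975702, minus strand: cgtgtcctacacaaTGGTGCTa
Col7a1, chr9:108984581-108984602, plus strand: tgctgtgctccattTGGTGCTa
Col9a1, chr1:24251997-24252018, plus strand: agatttagagcaacTGGTGCTa
A match is a description of the sequence and not evidence that the site is used, and miRNA levels were not analysed here.

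Most collagen chains were low in P19 cells, and the expressed ones were led by basement membrane chains. Averaged over the 18 samples, 20 of the 44 chains reached 1 TPM: 9 of 11 fibrillar, 5 of 8 basement membrane and 6 of 25 other chains. Only 5 chains reached 5 TPM. Col18a1, whose C-terminal fragment is endostatin, was the highest at 44.3 TPM. It was followed by Col4a1 at 17.0, Col5a2, a minor fibrillar chain that limits fibre thickness, at 14.9, Col9a2 at 9.0 and Col4a2 at 6.99 TPM. Within each line the sample ranges of neighbours in this order overlapped, except that every Col18a1 value lay above those of Col4a1. By contrast, the major chains of type I and III collagen, the bulk of connective tissue, averaged 4.68 (Col1a2), 2.51 (Col1a1) and 1.36 TPM (Col3a1). The other expressed fibrillar chains were Col5a1 (4.56 TPM), Col2a1 (3.12), Col11a1 (2.7), Col27a1 (2.47) and Col11a2 (1.04), and the other expressed basement membrane chains were Col4a5 (4.4) and Col4a6 (2.23). The remaining class was represented by Col7a1 (4.11 TPM), Col16a1 (3.36), Col6a4 (2.76), Col9a3 (2.53) and Col9a1 (1.68), besides Col9a2. The 24 chains under 1 TPM ranged from 0.969 TPM for Col26a1 to 0 for Col10a1, a marker of hypertrophic cartilage that was listed at 0 in all 18 samples. They included all 4 membrane-spanning chains, all 3 short network chains and 5 of the 6 type VI chains.

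**Figure D2:**
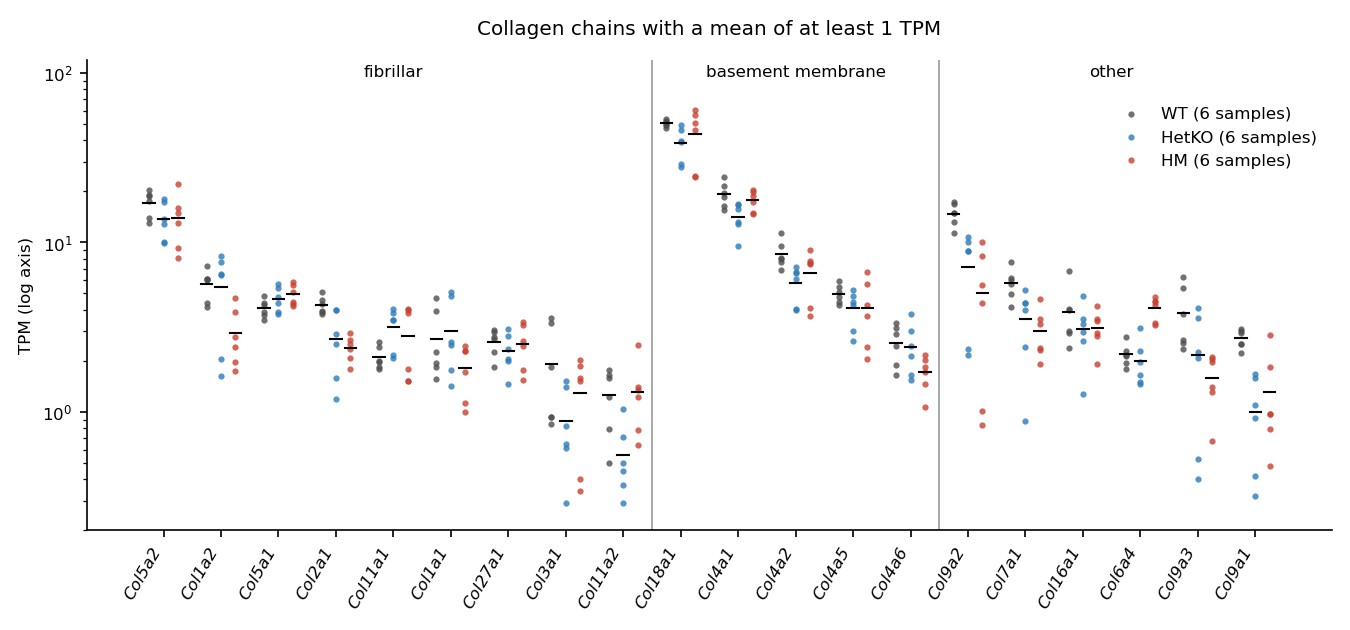
TPM (log axis) of the 20 collagen chains that averaged 1 TPM or more, grouped by class. Each point is a sample, 6 per line, and short bars are the means. Col18a1 stands above every other chain, and the HM points of Col6a4 lie above those of WT and HetKO.

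The summed level of all 44 chains was highest in WT cells, at 170 ± 8.82 TPM (SD, n = 6), with a range of 157 to 181 TPM. It was 125 ± 25.6 TPM in HetKO cells (n = 6), ranging from 91.0 to 147 TPM, and 134 ± 26.9 TPM in HM cells (n = 6), ranging from 105 to 168 TPM. All 6 HetKO samples lay below the lowest WT sample, whereas the HM and WT ranges overlapped. Within HetKO, replicates 2 and 5 held 94.5 and 91.0 TPM while the other four samples held 133 to 147 TPM. HM cells were spread over 3 levels that followed the alike pairs: 109 and 105 TPM in replicates 2 and 3, 130 TPM in replicates 5 and 6, and 168 and 165 TPM in replicates 1 and 4. The share of Col18a1 in the sum was 29.8% ± 1.06 in WT, 30.7% ± 1.82 in HetKO and 31.8% ± 7.09 in HM cells (n = 6 each).

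HM cells were first compared with WT cells, from which they differ by both the truncated and the hotspot allele. Of the 44 chains, 21 averaged 1 TPM or more over these 12 samples and were tested with limma on log2(TPM + 1), on which scale the change of low genes is understated. At a Benjamini-Hochberg adjusted p under 0.05 over all 14043 genes tested, 7 of the 21 chains passed (33.3%), against 51.4% of all genes. A single chain, Col6a4, rose (4.76% of the chains, against 19.4% of all genes), and 6 fell (28.6%, against 32.0%): Col9a1, Col9a2, Col9a3, Col1a2, Col2a1 and Col7a1. The chains as a group were thus called no more often than genes in general. Their median log2 fold change was -0.31, against -0.09 for all genes, and 16 of 21 (76.2%) were below 0, against 58.5% of all genes. By class, 2 of 9 fibrillar chains fell and none rose (median -0.31). Among the other chains 4 of 7 fell and 1 rose (median -0.75). No basement membrane chain passed with limma (0 of 5, with 1 at an unadjusted p under 0.05, and the same counts with an unequal-variance test), although all 5 values were below 0 (median -0.29). Some of them passed and fell in other settings: Col18a1, Col4a2 and Col4a5 without HM replicates 1 and 4, where 11 chains passed in all, Col4a2 with a replicate block, and Col4a6 with a filter of 1 TPM in 6 samples or without several sets of samples, HM replicates 2 and 3 among them. When the alike pairs were averaged and counted as 3 replicates per line, 3 of the 21 chains passed: Col6a4 rose, and Col2a1 and Col7a1 fell. No share over all genes is given here for averaged pairs, so counts in that setting cannot be set against genes in general.

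**Figure D3:**
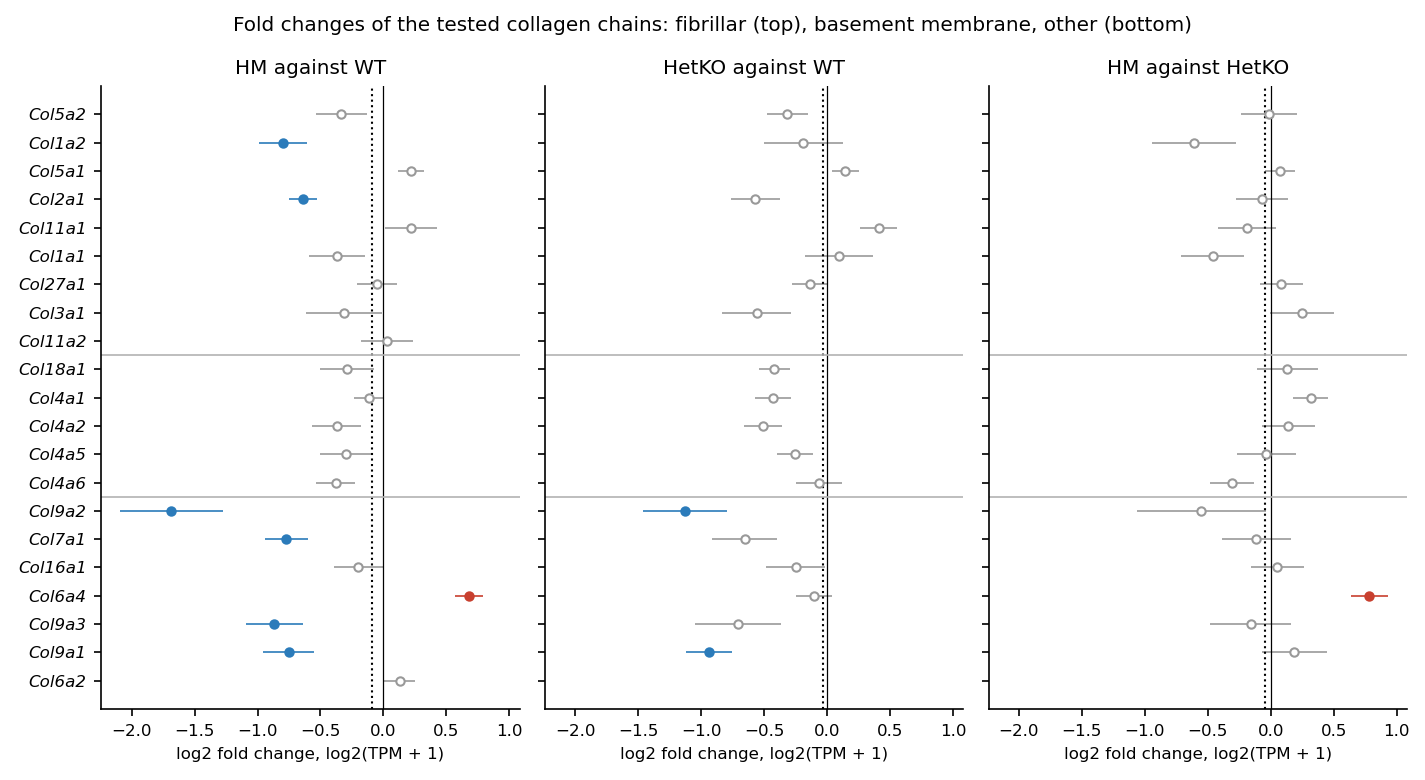
Log2 fold change of each tested collagen chain on log2(TPM + 1) in the 3 comparisons, with standard errors as bars. Filled blue points fell and filled red points rose at an adjusted p under 0.05 by limma, open points did not pass, and the dotted line is the median of all genes tested. Fibrillar chains are at the top, basement membrane chains in the middle and other chains at the bottom. The filled points of HM against WT are Col1a2, Col2a1, Col9a2, Col7a1, Col9a3 and Col9a1, which fell, and Col6a4, which rose.

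The largest change among the chains was in type IX collagen, a cartilage collagen that coats type II fibres. Col9a2 ranged from 11.4 to 17.4 TPM in WT cells (median 15) and from 0.84 to 10.02 TPM in HM cells (median 5.00). The groups did not overlap, and the lowest HM values were 1.01 and 0.84 TPM in replicates 2 and 3. The log2 fold change was -1.68 (SE 0.41, adjusted p = 0.00399, limma). Without HM replicates 2 and 3 it was -1.01 (adjusted p = 0.00135), and with the pairs averaged it did not pass (adjusted p = 0.0625).

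Col9a3 ranged from 2.34 to 6.23 TPM in WT (median 3.23) and from 0.67 to 2.10 TPM in HM cells (median 1.70), again without overlap, with a log2 fold change of -0.87 (SE 0.22, adjusted p = 0.00608, limma). Col9a3 overlaps Tcfl5 on the opposite strand, which averaged 67.4 TPM in WT and 81.6 TPM in HM cells. The libraries were stranded, but whether strand was used in the counting is not given in the sources used here, so reads of the 2 genes may have been shared. Col9a1 ranged from 2.23 to 3.08 TPM in WT (median 2.73) and from 0.48 to 2.84 TPM in HM cells (median 0.97). Its groups overlapped through HM replicate 1, the only HM sample above 1.85 TPM, and its log2 fold change was -0.75 (SE 0.20, adjusted p = 0.00797, limma).

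Type II collagen, the main fibrillar collagen of cartilage, is encoded by Col2a1. It ranged from 3.77 to 5.07 TPM in WT (median 4.12) and from 1.79 to 2.92 TPM in HM cells (median 2.44), and no HM sample reached the lowest WT sample. The log2 fold change was -0.64 (SE 0.11, adjusted p = 0.000406, limma). Sox9, the transcription factor of cartilage that activates the type II and type IX genes, averaged 1.47 TPM in WT and 0.257 TPM in HM cells, but was listed at 0.36 to 3.53 TPM in HetKO cells. The 5 cartilage markers checked summed to 6.08 to 8.56 TPM in WT, 4.5 to 9.63 in HetKO and 5.25 to 7.69 in HM cells. Acan, the cartilage proteoglycan gene, held most of this at 4.78, 4.74 and 4.54 TPM, and Matn1, a further cartilage marker, was near 0. The part of Sox9 or of any cartilage-like cells in the collagen result was not tested.

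Col1a2, a chain of type I collagen, ranged from 4.14 to 7.29 TPM in WT (median 6.04) and from 1.74 to 4.68 TPM in HM cells (median 2.60). Only HM replicate 4 reached the WT range, and the log2 fold change was -0.80 (SE 0.19, adjusted p = 0.00346, limma). The 24 other tested genes within 5 Mb to each side had a median of -0.29, with 70.8% below 0. For all genes these values were -0.09 and 58.5%. The part of the neighbourhood in the fall of Col1a2 was not tested. Col1a1, its partner chain, ranged from 1.57 to 4.71 TPM in WT and from 1.00 to 2.44 TPM in HM cells and did not pass (log2 fold change -0.37, SE 0.22, adjusted p = 0.188). Col7a1, the chain of the anchoring fibrils under skin, ranged from 4.17 to 7.70 TPM in WT (median 5.83) and from 1.93 to 4.61 TPM in HM cells (median 2.86). As with Col1a2, only HM replicate 4 reached the WT range, and the log2 fold change was -0.77 (SE 0.17, adjusted p = 0.00222, limma).

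Col6a4, one of the long alternative chains of the type VI filaments, was the only chain that rose. It ranged from 1.80 to 2.77 TPM in WT (median 2.15) and from 3.26 to 4.76 TPM in HM cells (median 4.38). Every HM sample was above every WT sample, and HM replicates 2 and 3, which were low for other chains, were at 4.76 and 4.47 TPM. The log2 fold change was 0.68 (SE 0.11, adjusted p = 0.000362, limma). The other type VI chain tested, Col6a2, was not called (0.13, SE 0.12, adjusted p = 0.40), but it passed and rose when samples were centred on their medians (0.31) or quantile normalised (0.37). Col5a1 behaved likewise, with 0.22 (SE 0.10, adjusted p = 0.0934) on the deposited scale and 0.40 and 0.45 on the other scales, where it passed. These scalings moved the median of all genes from -0.09 to 0.08 and 0.02, and each gave 9 of 21 chains called, of which 3 rose and 6 fell. Of all 14043 genes, 4508 rose and 2879 fell when samples were centred, and 3632 rose and 3479 fell under quantile normalisation.

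**Figure D4:**
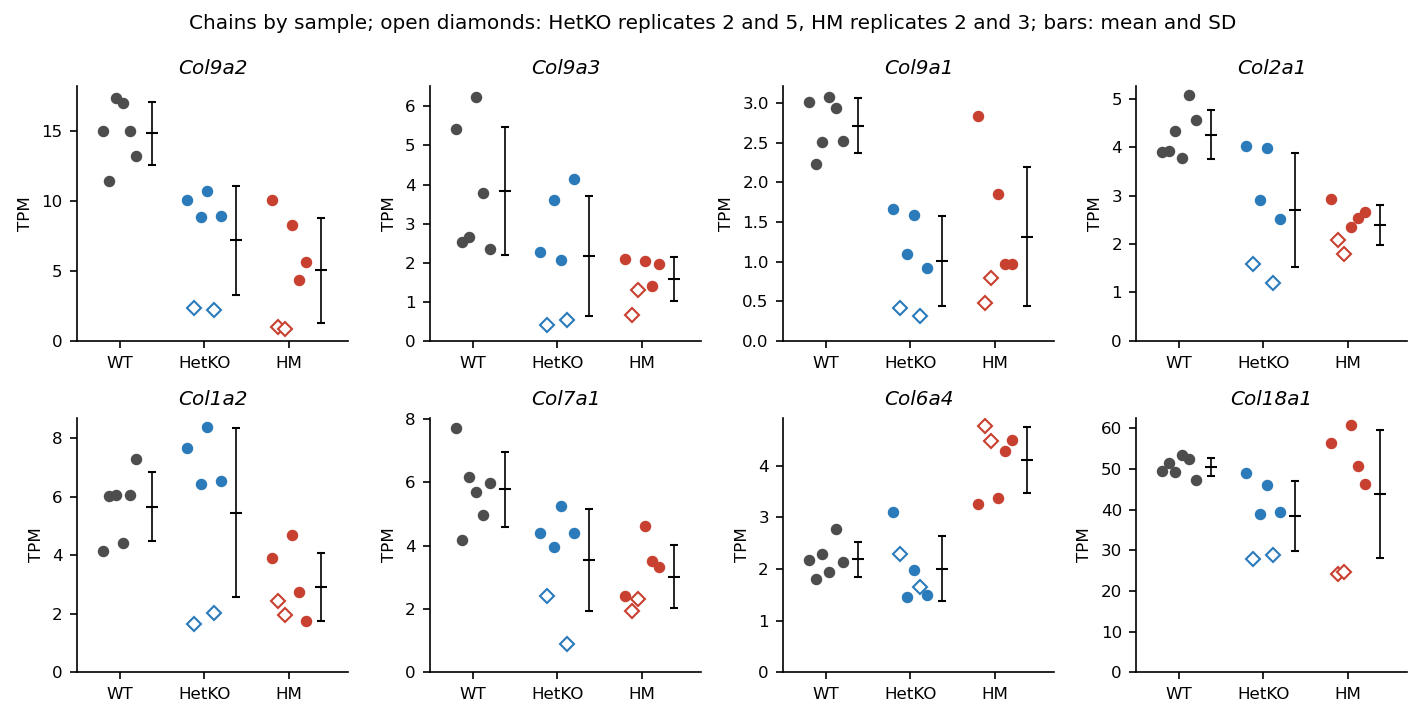
TPM of 8 collagen chains in each sample of WT, HetKO and HM cells, on linear axes from 0. Open diamonds are HetKO replicates 2 and 5 and HM replicates 2 and 3, filled circles are the other samples, and bars give the mean and SD (n = 6). The diamonds are the lowest samples of their line for Col9a2 and Col18a1 but not for Col6a4.

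Among the basement membrane chains, Col18a1 was lowest in the same pair of HM samples. It ranged from 47.4 to 53.4 TPM in WT cells (median 50.5). In HM cells it was 24.2 and 24.8 TPM in replicates 2 and 3 and 46.3 to 60.8 TPM in the other four. The log2 fold change of HM against WT was -0.29 (SE 0.21, adjusted p = 0.273, limma) and was 0.074 without these 2 samples, so its direction rested on them. Col18a1 overlaps Slc19a1 on the opposite strand, which averaged 14.4 TPM in WT and 13.7 TPM in HM cells. Col4a5, a type IV chain, was likewise lowest in replicates 2 and 3, at 2.41 and 2.06 TPM against 3.69 to 6.68 TPM in the other four HM samples, and in HetKO replicates 2 and 5, at 2.62 and 3 TPM. Col4a1 and Col4a2 had another order: Col4a1 was 14.8 to 20.4 TPM in HM cells, with replicates 2 and 3 at 18.9 and 17.4, against 15.5 to 24.2 TPM in WT cells (log2 fold change -0.12, SE 0.12, adjusted p = 0.421). Col4a2 was 3.69 to 9.01 TPM in HM and 6.86 to 11.4 TPM in WT cells (-0.37, SE 0.19, adjusted p = 0.126), and its lowest HM samples were replicates 5 and 6. Col5a2, a fibrillar chain, again had its lowest HM values in replicates 2 and 3, at 9.22 and 8.13 TPM against 13 to 21.99 TPM in the other four, and did not pass (-0.33, SE 0.20, adjusted p = 0.189).

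HetKO cells, which carry the truncated allele beside an intact one, were compared with the same WT samples, so the 2 comparisons share their controls. Of 19 chains tested, 2 passed (10.5%), against 10.2% of 13999 genes, and both fell, against 6.44% of all genes that fell and 3.71% that rose. They were again type IX chains. Col9a1 ranged from 0.32 to 1.67 TPM in HetKO cells (median 1.01), below all WT samples, with a log2 fold change of -0.94 (SE 0.18, adjusted p = 0.00689, limma). Col9a2 ranged from 2.18 to 10.7 TPM (median 8.87), also below all WT samples, with a log2 fold change of -1.13 (SE 0.33, adjusted p = 0.0483, limma). Its lowest values, 2.34 and 2.18 TPM, were in replicates 2 and 5, and without them the change was -0.56 (adjusted p = 0.0124). The call of Col9a2 was fragile: the adjusted p exceeded 0.05 on leaving out any single WT sample, and with the pairs averaged no chain passed by limma, with 3 at an unadjusted p under 0.05.

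The median of the 19 chains was -0.32, against -0.03 for all genes, and 16 of 19 (84.2%) were below 0, against 55.2% of all genes. No basement membrane chain passed with limma (0 of 5, but 3 at an unadjusted p under 0.05, also with an unequal-variance test), although Col18a1, Col4a1 or Col4a2 passed and fell in some alternatives, such as without HetKO replicates 1 and 4 (Col18a1) or 3 and 6 (Col4a2). The 3 were Col18a1 (-0.42, SE 0.13, adjusted p = 0.0534), Col4a2 (-0.51, SE 0.15, adjusted p = 0.054) and Col4a1 (-0.43, SE 0.14, adjusted p = 0.0696), with HetKO ranges of 27.9 to 49.1, 4.02 to 7.19 and 9.53 to 16.9 TPM. Of the 6 HetKO samples, 5, 5 and 3 lay below the WT range of these chains, in that order. In Col4a1 and Col4a2 it was HetKO replicates 1 and 4 that were lowest, not 2 and 5. No fibrillar chain passed either (0 of 8, with 2 at an unadjusted p under 0.05, and the same with an unequal-variance test). Among them Col1a2 had the widest spread, 1.64 and 2.04 TPM in replicates 2 and 5 against 6.43 to 8.37 TPM in the other four (-0.19, SE 0.31, adjusted p = 0.715). Without those 2 samples its sign turned, to 0.32 (adjusted p = 0.21). Col11a1, singled out after its values were seen, lies in a stretch of chromosome 3 raised in HetKO cells: its own log2 fold change was 0.41 (SE 0.15, adjusted p = 0.0946), and the 25 tested genes within 5 Mb to each side had a median of 0.61. For the 11 chains named here, the median of the neighbours within 5 Mb lay between -0.14 and 0.083 in HetKO against WT and between -0.29 and 0.14 in HM against WT. The -0.29 was that of Col1a2 and the 0.14 that of Col9a1, both of which fell in HM cells.

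HM cells were compared with HetKO cells, their parental line, to ask what differed with the added hotspot substitution. Of 19 chains tested, only Col6a4 passed (5.26%, against 34.6% of 13762 genes, of which 14.0% rose and 20.6% fell). It ranged from 1.46 to 3.11 TPM in HetKO cells (median 1.82) and from 3.26 TPM in HM cells, without overlap, and rose by a log2 fold change of 0.78 (SE 0.15, adjusted p = 0.00198, limma). Neither fibrillar nor basement membrane chains passed with limma (0 of 8 and 0 of 5, with 0 and 1 at an unadjusted p under 0.05, and 0 and 0 with an unequal-variance test). The other 18 chains ranged from -0.61 for Col1a2 (SE 0.33, adjusted p = 0.174) to 0.32 for Col4a1 (SE 0.14, adjusted p = 0.0899), with a median over the 19 of -0.02, against -0.05 for all genes. Col9a2 was at -0.55 (SE 0.51, adjusted p = 0.422), and its sign turned without HM replicates 2 and 3 (0.12). The count depended on the pairs with the lowest collagen sums, which were picked out by the collagen values themselves. For chains low in these samples, leaving out the HetKO pair moves the result towards a fall in HM. Leaving out the HM pair moves it towards a rise. The directions below are thus partly set by the choice, and no share over all genes is given here for them. Without HetKO replicates 2 and 5, 7 chains passed: Col4a1 and Col6a4 rose, and Col1a1, Col1a2, Col4a6, Col7a1 and Col9a3 fell. Without HM replicates 2 and 3, 3 passed and rose, namely Col18a1, Col3a1 and Col6a4. Without both pairs, an alternative chosen after seeing the data, 6 passed: Col18a1 and Col6a4 rose, and Col1a1, Col1a2, Col4a6 and Col11a1 fell. With the pairs averaged no chain passed by limma, with 1 at an unadjusted p under 0.05. Except in that last setting, Col6a4 was the chain called in each.

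Some chains of a single molecule were also compared as ratios within a sample, since a heterotrimer needs its chains in fixed proportion. No ratio was taken with Col9a2, the remaining type IX chain, or of Col5a1 to Col5a2, so these proportions were not tested. In HM against WT the log2 fold change was -1.68 for Col9a2, -0.75 for Col9a1 and -0.87 for Col9a3. The mean log2 ratio of Col4a1 to Col4a2, on log2(TPM + 1), was 1.09 ± 0.25 in WT, 1.16 ± 0.20 in HetKO and 1.34 ± 0.29 in HM cells (SD, n = 6 each). For Col9a1 to Col9a3 it was -0.32 ± 0.36, -0.55 ± 0.58 and -0.20 ± 0.30, and for Col1a1 to Col1a2 -0.89 ± 0.72, -0.61 ± 0.43 and -0.46 ± 0.44. None of the 9 differences between lines passed a two-sided exact permutation test (smallest p = 0.134, adjusted p = 0.565 over the 9), where the smallest p such a test can give is 0.00216. Col4a1 and Col4a2 are transcribed away from each other, and their annotated first exons share 22 bases, chr8:11312805-11312826, so reads there cannot be assigned without strand. The plus strand, with the GC box GGGCGG in capitals, reads as follows.
Col4a1 and Col4a2 shared start: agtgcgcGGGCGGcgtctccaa
The starts of Col4a3 and Col4a4 are 72 bases apart on opposite strands, and those of Col4a5 and Col4a6 1309 bases.

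Start regions were available for 35 of the 44 chains in RefSeq (GRCm38.p6), as windows from 250 bases before to 50 after the start, and 4 short motifs were counted on both strands. The 18 windows of expressed chains covered 16 of the 20 such chains, with more than 1 window for Col9a1 and Col18a1. No window was available for Col1a1, Col2a1, Col5a2 or Col9a3, so the counts below do not cover them. GGGCGG, the core of the GC box, was present in 14 of 18 windows of expressed chains (77.8%), in 63.8% of 12697 windows of genes that averaged 1 TPM or more and in 35.7% of all 32851 windows. CCAAT was present in 55.6%, 38.5% and 37.4%. ACAATG and ACAAAG, cores read by SOX factors, were present in 0 and 1 of the 18 windows, against 7.16% and 13.7% of windows of expressed genes. The 250 bases before the RefSeq start of Col9a2, the chain that moved most, held 2 GC boxes. The GENCODE M21 start of this gene, 121039385, lies within the stretch, so both boxes are inside the gene as annotated there. They are shown in capitals on the strand of the gene (chr4:121039316-121039565, plus strand).
Col9a2 upstream: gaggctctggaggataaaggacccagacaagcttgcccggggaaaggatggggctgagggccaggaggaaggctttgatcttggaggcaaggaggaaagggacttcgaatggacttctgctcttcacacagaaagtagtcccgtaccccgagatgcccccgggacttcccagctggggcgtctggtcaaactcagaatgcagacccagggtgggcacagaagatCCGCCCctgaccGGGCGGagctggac

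The changes of the chains were also set beside their miR-29 matches. In HM against WT, the 15 tested chains with a match had a median log2 fold change of -0.31, with 3 that fell and none that rose (0 at limma adjusted p under 0.05). The 6 without a match had a median of -0.54, with 3 that fell and 1 that rose. Among all genes with an annotated 3′ UTR, 646 of 1918 with a match fell and 423 rose (median -0.08), and 3510 of 10073 without a match fell and 2052 rose (median -0.11). In HetKO against WT the medians of the chains were -0.29 with and -0.42 without a match.

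The genes whose products make, export and anchor collagens were compared in the same way. Of 71 partner genes in 6 lists, 51 were tested in HM against WT and 25 passed (49.0%, against 51.4% of all genes), of which 7 rose and 18 fell. Under quantile normalisation 11 rose (21.6%) and 15 fell (29.4%), where 3632 of all 14043 genes rose and 3479 fell. Serpinh1, which encodes the collagen chaperone HSP47, ranged from 55.5 to 109 TPM in WT (median 100), from 81.0 to 109 TPM in HetKO (median 96.1) and from 1.85 to 8.26 TPM in HM cells (median 3.31). No HM sample came near the other lines, and replicates 2 and 3 were the lowest at 1.85 and 1.91 TPM. The log2 fold change was -4.16 against WT (SE 0.31, adjusted p = 1.54e-06, limma). In the list of folding and modification, 6 of 17 tested genes fell (35.3%, against 32.0% of all genes) and 1 rose (5.88%, against 19.4%). Besides Serpinh1, Plod2, a lysyl hydroxylase, fell from 85.4 ± 19.0 to 31.4 ± 11.4 TPM (n = 6 each), and P4ha1, a catalytic subunit of prolyl 4-hydroxylase, from 82.1 ± 18.6 to 41.9 ± 12.1 TPM. Neither had an HM sample within the WT range. Ppib, a prolyl isomerase, rose slightly (0.13, SE 0.037, adjusted p = 0.0116, limma), but its sign turned under quantile normalisation (-0.012). Of the other genes of this list that fell, P4ha2, P4hb and P3h1, none passed when samples were centred on their medians. Under quantile normalisation P4ha2 (-0.57) and P4hb (-0.39) passed and P3h1 did not.

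**Figure D5:**
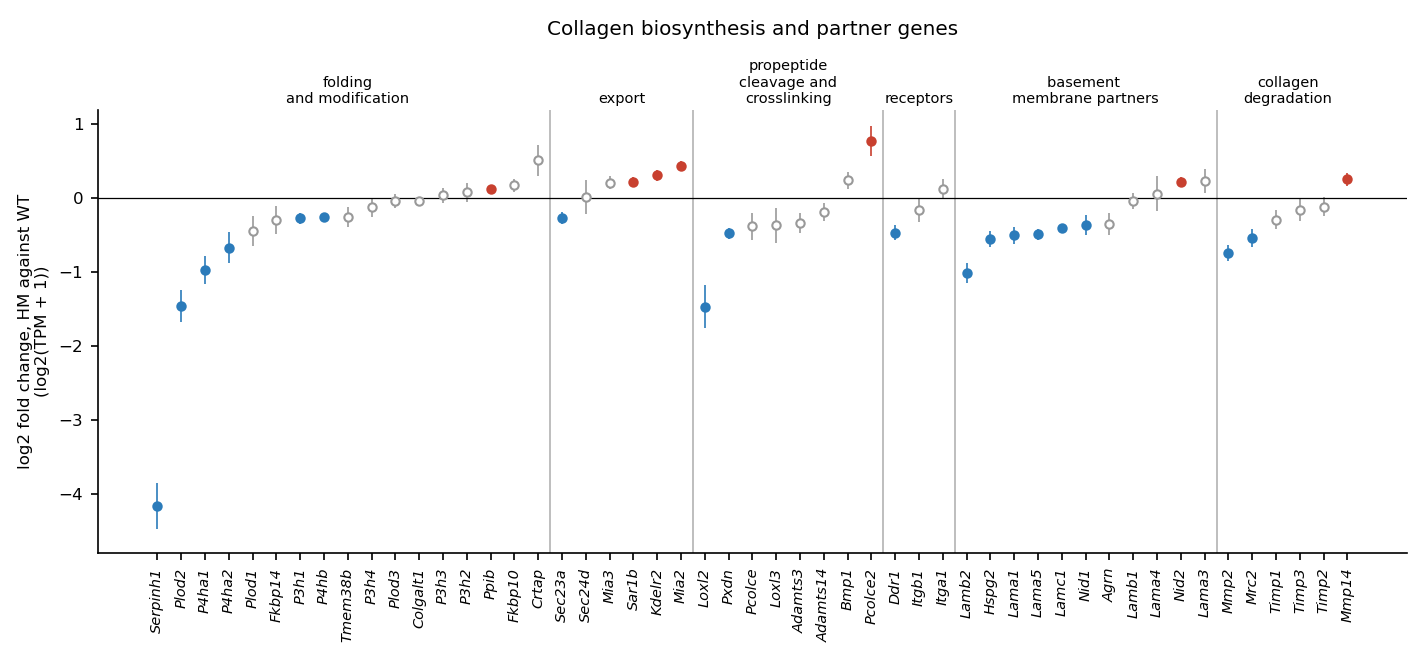
Log2 fold change of HM against WT cells, on log2(TPM + 1), for the 51 tested genes of 6 lists of collagen biosynthesis and partner genes, with standard errors as bars. Filled red points rose and filled blue points fell at an adjusted p under 0.05 by limma, and open points did not pass. Serpinh1 lies far below the rest, followed by Loxl2, Plod2 and Lamb2.

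Of 8 tested genes of propeptide cleavage and crosslinking, 2 fell (25.0%) and 1 rose (12.5%) in HM cells, against 32.0% and 19.4% of all genes. Loxl2, a lysyl oxidase that crosslinks collagen, fell from 48.8 ± 10.6 to 18.6 ± 9.69 TPM (n = 6 each; log2 fold change -1.47, SE 0.29, adjusted p = 0.00112, limma), and Pxdn, which crosslinks type IV collagen, from 55.5 ± 2.94 to 39.9 ± 5.17 TPM (-0.47). Pcolce2, an enhancer of procollagen cleavage, rose from 3.57 ± 1.15 to 6.87 ± 2.34 TPM (0.77, SE 0.20, adjusted p = 0.00696, limma). Of 11 tested basement membrane partners, 6 fell (54.5%, against 32.0% of all genes) and 1 rose (9.09%, against 19.4%). Under quantile normalisation 4 fell and 2 rose, where 3479 of all 14043 genes fell and 3632 rose. Lamb2, a laminin chain, fell from 14.6 ± 2.27 to 6.78 ± 1.54 TPM (-1.01), and Hspg2, which encodes perlecan, from 23.0 ± 1.16 to 15.7 ± 2.80 TPM (-0.55). Nid2, a nidogen that links laminin to type IV collagen, rose from 115 ± 7.33 to 135 ± 13.7 TPM (0.22). Lama1, a laminin chain of the earliest embryonic basement membranes, fell from 2.67 ± 0.43 to 1.59 ± 0.34 TPM in HM cells (-0.50). The call of Lama1 barely passed when samples were centred (adjusted p = 0.0496, limma) and did not pass under quantile normalisation. It was listed at 0 to 0.01 TPM in all 6 HetKO samples, although HM cells derive from that line.

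Of the 6 export genes, 3 rose and 1 fell in HM against WT, where 19.4% of all genes rose and 32.0% fell. When the pairs were averaged 1 rose, a setting for which no share over all genes is given here. Mia2, a partner of the TANGO1 export machinery, rose from 35.5 ± 3.39 to 48.3 ± 2.93 TPM (0.44, SE 0.069, adjusted p = 0.000241, limma), Kdelr2, a retrieval receptor, rose by 0.31 and Sar1b, a coat GTPase, by 0.22, while Sec23a, a coat subunit, fell by 0.27 on the log2 scale. The call of Sec23a did not pass when samples were centred on their medians but did under quantile normalisation (-0.195). Among the 3 collagen receptors tested, Ddr1, a receptor kinase, fell from 23.8 ± 1.87 to 17.1 ± 2.97 TPM (-0.47). Among 6 tested genes of collagen degradation, Mmp2, a gelatinase, fell from 28.2 ± 3.5 to 16.6 ± 2.85 TPM (-0.74) and Mrc2, an uptake receptor, from 26.0 ± 5.08 to 17.4 ± 1.63 TPM (-0.54), and Mmp14, a membrane collagenase, rose from 7.88 ± 0.45 to 9.69 ± 1.38 TPM (0.26). With the pairs averaged, 12 of the 51 partner genes passed, again without a share over all genes.

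In HetKO against WT, 9 of 52 partner genes passed (17.3%, against 10.2% of all genes), of which 2 rose and 7 fell. They were named after their values were seen: Ppib and the integrin subunit Itga10 rose, and Pcolce2, the integrin subunits Itga1 and Itgb1, the laminin chains Lama1, Lama5 and Lamc1, and Hspg2 fell. On rescaling, the calls of Itgb1 (adjusted p = 0.0764, limma) and Hspg2 (0.0509) were lost when samples were centred, and those of Pcolce2 (0.0631) and Itga1 (0.0592) under quantile normalisation. Serpinh1 did not pass (0.18, SE 0.17, adjusted p = 0.512). In HM against HetKO, 16 of 50 passed (32.0%, against 34.6%), of which 5 rose and 11 fell, and Serpinh1 fell by 4.34 on the log2 scale (adjusted p = 2.41e-07, limma). With the pairs averaged, 1 and 3 genes passed in these comparisons, also without a share over all genes.

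Markers of fibroblasts and mesenchyme, which are rich in type I and III collagen, were checked beside these results. The 8 markers summed to 7.57 to 15.5 TPM in WT, 5.79 to 9.98 in HetKO and 17.7 to 33.6 in HM cells, and 4, 2 and 4 of the 8 averaged at least 1 TPM in these lines. Twist1, a mesenchymal transcription factor, averaged 4.30, 4.86 and 14.3 TPM in WT, HetKO and HM cells. Dcn, the fibroblast proteoglycan decorin, averaged 2.38, 0.54 and 5.07 TPM, and Twist2 1.16, 0.67 and 1.82 TPM. Lower on average in HM than in WT cells were Pdgfra, at 1.74, 0.705 and 1.43 TPM, and Pdgfrb, at 0.715, 1.03 and 0.523 TPM. Postn averaged 0.453, 0.052 and 0.83 TPM in the same order. Prrx1, at or below 0.18 TPM in every sample, averaged 0.095, 0.043 and 0.032 TPM. Lum, at or below 0.73 TPM, averaged 0.048 in WT and 0.26 in HM cells. Endoderm markers (7 genes) summed to 8.88 to 15.8, 5.49 to 10.7 and 6.19 to 10.7 TPM, neural markers (5 genes) to 48.1 to 52.4, 26.3 to 56.6 and 30.2 to 57.9 TPM, and endothelial markers (4 genes) to 3.2 to 5.2, 0.48 to 3.75 and 0.90 to 5.24 TPM in WT, HetKO and HM cells. The part of these markers in the collagen results was not tested.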

How the data were processed

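The authors prepared stranded polyA libraries, merged read pairs with BBMerge and quantified genes with RSEM; the submitters' processing notes also name cutadapt, STAR and mm10. They deposited TPM per gene and sample, from which no depth or counts can be recovered. All 55450 gene identifiers matched GENCODE M21 (GRCm38, the assembly of mm10), from which coordinates, coding sequences and UTRs were taken. In each comparison limma 3.58.1 in R 4.3.3, with a trended prior variance, was applied to log2(TPM + 1) of the genes that averaged 1 TPM or more over its 12 samples, with Benjamini-Hochberg adjustment over all genes tested. Ratios were tested by exact permutation (NumPy 2.4.6), and p-values are two-sided. Both tests were tested on simulated data. Collagen chains were named in detail where they averaged 5 TPM or more over 18 samples or where they passed with an absolute log2 fold change of at least 0.58; partner genes were Serpinh1 and up to 3 per list and direction with the largest change in HM against WT. Other chains are given to account for each member. The chains, classes, partner and marker lists and alternatives were chosen with earlier results of these data known. Alternatives changed the pseudocount, filter, scaling, test and samples. No protein table was used here.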

Additional observations from a re-analysis of the deposited data

Results flagged for a closer look

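Over the 20 expressed chains in the 3 lines, 60 groups of 6 samples were examined, and 0 had a highest or lowest sample separated from the nearest other sample by more of the group's range than Dixon's 95% limit for 6 samples allows. Chance would give about 3. Pairs of low samples, such as HetKO replicates 2 and 5, are not found by this rule, which looks for a lone sample.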

How the results depend on the processing

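In HM against WT the count of 7 chains stayed within 1.5 times except with averaged pairs (3) and without HM replicates 1 and 4 (11); leaving out single samples gave 7 to 8. With averaged pairs the adjusted p in limma of Col9a2, Col1a2, Col9a3 and Col9a1 was 0.0625 to 0.0932. The sign of Col18a1 turned without HM replicates 2 and 3 (0.0739), and that of Col4a1 on centring samples (0.0615) or quantile normalisation (0.0419). In HetKO against WT the count of 2 became 1 with a pseudocount of 0.1, an unequal-variance test, or without WT replicates 1 and 4, 2 and 5, or 3 and 6. It became 4 with no filter or without HetKO replicates 3 and 6, 5 without HetKO replicates 1 and 4, 0 with averaged pairs (limma, 3 at an unadjusted p under 0.05) and 1 to 4 without single samples. Col9a2 lost its call in several of these settings, with adjusted p up to 0.455. Col1a2 turned sign without HetKO replicates 2 and 5 (0.322) and ranged from -0.3305 to 0.035 without single samples, and Col6a4 turned sign on quantile normalisation (0.0715) and without HetKO replicates 3 and 6 (0.0211). In HM against HetKO the count of 1 became 4 with no filter, 5 at 0.1 TPM or more, 2 on centring, on quantile normalisation or without HM replicates 5 and 6, 3 without HM replicates 2 and 3, 7 without HetKO replicates 2 and 5, 6 without both of these pairs (chosen after seeing the data), 0 with averaged pairs (limma, 1 at an unadjusted p under 0.05) and 1 to 2 without single samples. Col9a2 turned sign without HM replicates 2 and 3 (0.1189). With averaged pairs 12, 1 and 3 partner genes passed, in place of 25, 9 and 16. Fewer samples enter those fits, and the share over all genes in them is not given here. Otherwise the cause was not tested. Centring and quantile normalisation raised the share of higher calls over all genes from 37.7% to 61.0% and 51.1% in HM against WT, from 36.5% to 50.7% and 48.1% in HetKO against WT and from 40.4% to 60.9% and 49.3% in HM against HetKO. No ratio passed under any alternative tried.

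The replicate numbers did not pair the samples: the mean correlation of deviations of same-numbered samples was 0.003, 0.062 and 0.019 in the 3 comparisons, and the fit with a replicate block called 8, 2 and 1 chains. TPM keep no counts, so what depth limits cannot be given, and low chains are the least precise.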
